A study of Drosophila melanogaster with 2 samples.

Results

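Splicing factor genes encode the parts of the spliceosome, the assembly that removes introns from pre-mRNA, and the proteins that guide it to splice sites. The set described here is a fixed list of 35 genes, taken by symbol from the Ensembl annotation of Drosophila melanogaster, out of 13945 protein-coding genes on the 6 chromosome arms. It holds 19 genes for proteins of the small nuclear ribonucleoprotein particles (core snRNP), 6 genes grouped as SR proteins and 10 genes that belong to neither class. The SR group includes Rsf1, which antagonises SR proteins. The question was where peaks of the tagged protein CG9705 lie at these genes, how high they rank, and how the core snRNP and SR protein genes compare.

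The peaks come from chromatin immunoprecipitation and sequencing (ChIP-seq) of whole wandering L3 larvae, the last larval stage, with both sexes pooled, from 1 transgenic line with green fluorescent protein at the C terminus of CG9705, a cold-shock domain protein. There were 2 biological replicates of 1 group, so no condition is compared with another. The labels give each replicate its own biosample but the same donor line, and do not say which promoter drives the fusion or which cells express it. The labels conflict on what the libraries are: a free-text line names each an input control, but the antibody field gives CG9705, the assay field a transcription factor ChIP, and the file notes a separate control. They are treated here as ChIP libraries, and which label is right was not tested. The deposited lists hold 30000 relaxed peaks for each replicate and for both pooled, and 3533 optimal peaks that passed the authors' reproducibility filter. Read counts are not part of these lists, and sequencing depth is therefore unknown.

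As background, each snRNP of the major spliceosome is built on a small nuclear RNA. The U1 particle recognises the 5' splice site, and U2AF and the U2 particle recognise the 3' splice site and the branch point. The tri-snRNP of U4, U6 and U5 then joins, and the Prp19 complex and RNA helicases turn the assembly into its active form. SR proteins bind exons through RNA recognition motifs and recruit these particles through domains rich in arginine and serine. The core snRNP genes are needed in every cell that splices, and SR proteins such as B52 and SC35 also steer alternative splicing.

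Sequences around the summit are given for 5 of the 13 peaks, chosen by their motifs and not as typical of the set. They run from 100 bp before to 100 bp after the summit, shortened where an annotated exon begins, read on the strand of the splicing gene, 5' to 3', from RefSeq Release 6 of the genome. SF2, snRNP-U1-C and Sf3b3 were chosen because their windows hold the DNA replication-related element (DRE, TATCGATA), the site of the factor DREF at many promoters of housekeeping genes. Sf3b1 was chosen for the DRE core (ATCGATA) together with the core of Motif 1 (GGTCACAC), another housekeeping promoter element, and noi because none of the 10 motifs searched (all spelled out with the motif counts) was in its window. Capitals mark the DRE, its core and the Motif 1 core.
SF2, chr3R:16342062-16342262, minus strand: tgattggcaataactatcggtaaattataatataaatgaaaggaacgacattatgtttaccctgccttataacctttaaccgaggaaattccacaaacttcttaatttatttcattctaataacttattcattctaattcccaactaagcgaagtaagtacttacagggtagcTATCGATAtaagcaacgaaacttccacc
snRNP-U1-C, chr3R:18983673-18983873, minus strand: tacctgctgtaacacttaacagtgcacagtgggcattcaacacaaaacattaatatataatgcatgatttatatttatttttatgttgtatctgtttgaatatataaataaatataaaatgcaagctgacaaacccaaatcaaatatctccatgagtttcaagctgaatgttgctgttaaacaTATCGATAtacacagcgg
Sf3b3, chr3L:833411-833611, minus strand: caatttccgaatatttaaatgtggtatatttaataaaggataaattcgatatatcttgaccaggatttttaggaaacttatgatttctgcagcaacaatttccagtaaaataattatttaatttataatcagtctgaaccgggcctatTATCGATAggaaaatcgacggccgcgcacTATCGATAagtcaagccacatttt
Sf3b1, chr2L:568144-568339, plus strand: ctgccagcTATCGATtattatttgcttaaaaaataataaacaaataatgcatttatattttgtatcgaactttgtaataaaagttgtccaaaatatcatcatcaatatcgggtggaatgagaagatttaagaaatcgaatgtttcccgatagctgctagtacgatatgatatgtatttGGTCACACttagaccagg
noi, chr3R:5591498-5591698, minus strand: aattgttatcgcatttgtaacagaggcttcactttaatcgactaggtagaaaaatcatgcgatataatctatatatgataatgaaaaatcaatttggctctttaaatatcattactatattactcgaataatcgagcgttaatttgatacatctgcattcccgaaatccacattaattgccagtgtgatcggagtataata

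Of the 35 splicing factor genes, 13 had an optimal summit within 500 bp of an annotated transcript start and are called bound below (37.1%, 95% exact binomial interval 21.5 to 55.1%), against 19.1% of all protein-coding genes. The interval covers the counting of genes only, and no test of the difference was made, because the list was drawn up with earlier results of these data known. The bound genes were U2af50, BCAS2, SF2, SmD3, snRNP-U1-C, SNRPG, Prp31, B52, l(2)37Cb, Sf3b1, noi, SC35 and Sf3b3, in the order of their pooled rank. From the 3533 best peaks of replicate 1 alone 13 members were bound (37.1%, against 18.2% of all genes), and from those of replicate 2 alone 14 were (40.0%, against 19.7%). In each replicate 12 of the 13 genes were bound again, which is no independent check, because the optimal set was made from both replicates. Replicate 1 lacked Sf3b3 and added SmB, and replicate 2 lacked SC35 and added Prp19 and Sf3a1.

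**Figure D1:**
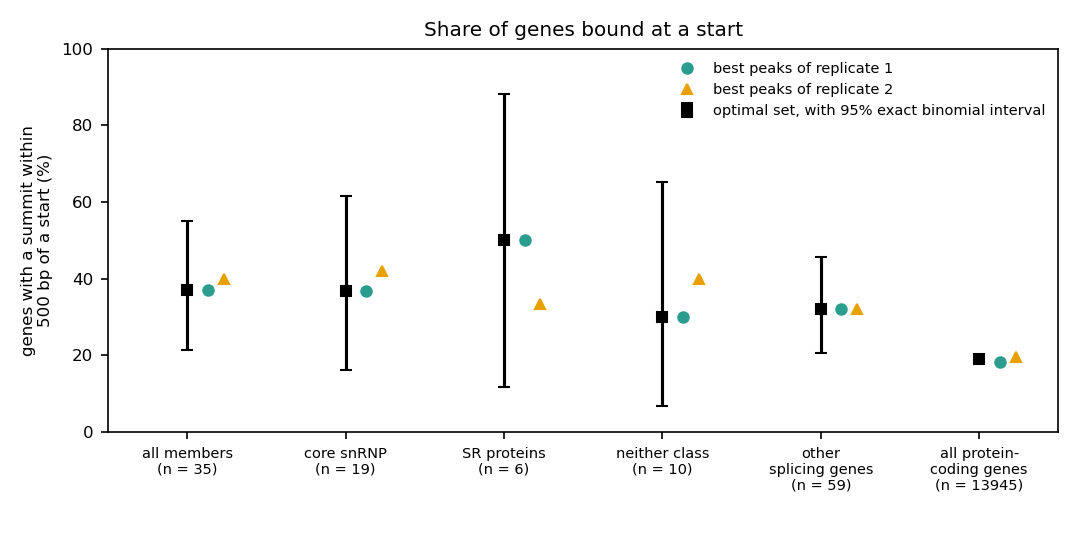
Share of genes, in percent, with a peak summit within 500 bp of a transcript start, for the splicing factor genes, their classes, other splicing genes and all protein-coding genes. Squares show the optimal set with 95% exact binomial intervals, circles and triangles the 3533 best peaks of replicate 1 and of replicate 2. The 3 classes of splicing factor genes have intervals that overlap widely.

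Most bound splicing genes ranked in the middle of the optimal set and not at its top. The rank counts peaks from the highest score down within a list, and the score is the authors' own value, so only ranks are set side by side between lists. Member peaks had a median score of 194 and all 1962 optimal peaks at protein-coding starts a median of 172. U2af50 was the highest, with a score above 82.9% of those peaks, and Sf3b3 the lowest, above 11.7%. Over the 13 peaks the ranks in the 2 replicates correlated with Spearman's rho of 0.593, and over the 26 members with a start peak in both relaxed lists with 0.761. For all 6390 genes with a start peak in both lists rho was 0.827. These values are descriptions, since all points share the same libraries.

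**Figure D2:**
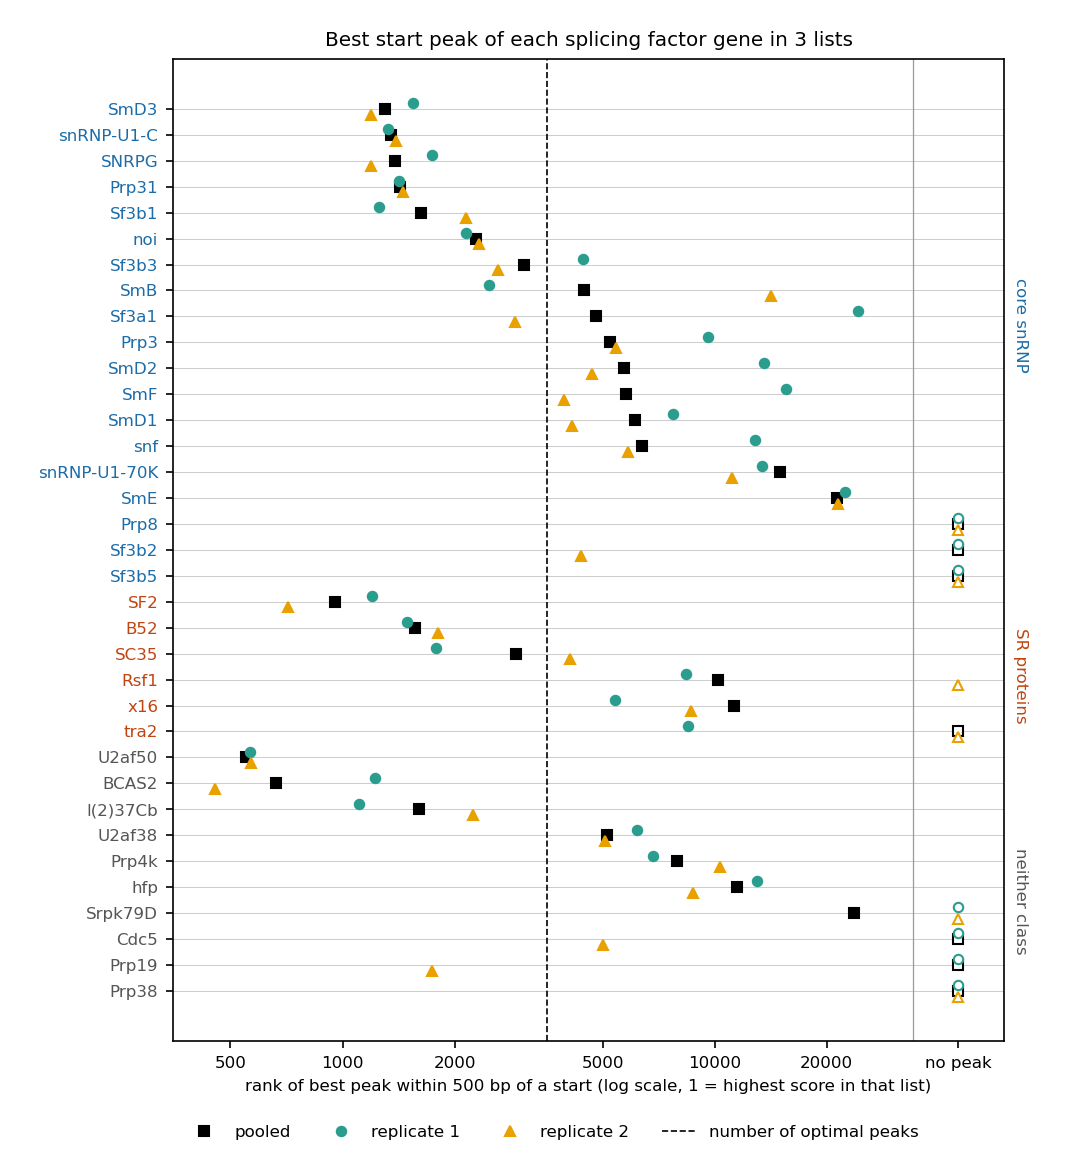
Rank of the best peak within 500 bp of a start for each of the 35 splicing factor genes, on a log axis, in the pooled list (squares), replicate 1 (circles) and replicate 2 (triangles). Open symbols at the right mark a list with no such peak, and the dashed line marks rank 3533. Members left of the line in the pooled list span ranks 549 to 3069.

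The Sm proteins form the ring that encloses each of the U1, U2, U4 and U5 RNAs. Of their 7 genes 2 were bound (28.6%, against 19.1% of all genes). The SmD3 peak ranked 1300 in the pooled list, 1545 in replicate 1 and 1195 in replicate 2, with a pooled score of 208. The SNRPG peak ranked 1382, 1744 and 1192 in the same lists, with a pooled score of 199; SNRPG is the fly gene for SmG. The other 5 Sm genes had a relaxed peak at the start in all 3 lists. SmB ranked 4442 in the pooled list and was the 1 of these 5 to reach the best 3533 of a replicate, with rank 2475 in replicate 1 and 14143 in replicate 2. SmD1, SmD2 and SmF had pooled ranks between 5694 and 6115, and SmE was far lower at 21272. Every Sm gene thus had some relaxed peak at its start, as had 53.9% of all genes in the pooled list, 54.2% in replicate 1 and 54.5% in replicate 2. The relaxed lists include background, and the pooled ranks of the Sm genes spanned 1300 to 21272.

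Among the 3 genes for U1 proteins, snRNP-U1-C was bound (33.3%, against 19.1% of all genes) and the other 2 were not. Its protein steadies the pairing of U1 with the 5' splice site. The peak (3R, 18983573 to 18983972) held nearly the same place in every list, with ranks of 1349 in the pooled list, 1321 in replicate 1 and 1390 in replicate 2. The gene snf, whose protein serves in both U1 and U2 particles, ranked 6365 in the pooled list, 12851 in replicate 1 and 5858 in replicate 2. The peak of snRNP-U1-70K, which binds a stem-loop of U1 RNA, ranked 14998, 13381 and 11152 in those lists.

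Of the 6 genes in the list for the SF3a and SF3b parts of the U2 particle, 3 were bound (50%, against 19.1% of all genes). The list does not hold every gene of these parts. Phf5a, Sf3b6 and Sf3a2, counted with the other splicing genes below, were bound too, with pooled ranks of 516, 625 and 2493. Sf3b1, whose protein clamps the branch point, had ranks of 1622 in the pooled list, 1257 in replicate 1 and 2151 in replicate 2. noi, an SF3a subunit gene, had ranks of 2285, 2147 and 2326. Sf3b3 stood closest to the limit, with rank 3069 in the pooled list, 4425 in replicate 1 and 2621 in replicate 2, so that replicate 1 alone would not have called it. Of the listed U2 genes with a start peak in both replicates, Sf3a1 differed most between the libraries. It ranked 24272 in replicate 1, 2910 in replicate 2 and 4786 in the pool. Sf3b2 had a start peak only in the replicate 2 list (rank 4371), and Sf3b5 had none in any list.

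Prp31, which joins the U4 and U6 particle to U5, was bound, 1 of 3 tri-snRNP genes (33.3%, against 19.1% of all genes). Its ranks were 1424 in the pooled list, 1417 in replicate 1 and 1456 in replicate 2, the closest agreement of the bound set along with U2af50. Prp3, a protein of the U4 and U6 particle, ranked 5231, 9585 and 5434. Prp8, the large scaffold protein of the catalytic centre, had no peak at its start and none in its gene body in any of the 3 lists.

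The 2 highest-ranked members belonged to neither the core snRNP nor the SR class. U2af50, the large subunit of U2AF that binds the polypyrimidine tract, ranked 549 in the pooled list, 564 in replicate 1 and 566 in replicate 2, with a pooled score of 350 (X, 16359032 to 16359302). U2af38, the gene for the small subunit, ranked 5120, 6171 and 5083. Both genes kept their places across the libraries, and U2af38 lay below the limit in all of them. BCAS2, a subunit of the Prp19 complex, ranked 661 in the pooled list, 1223 in replicate 1 and 454 in replicate 2, with a pooled score of 318 (3R, 27922670 to 27922902). l(2)37Cb, which encodes a DEAH-box helicase of the spliceosome, ranked 1604, 1106 and 2245. Prp4k, a spliceosomal kinase, had its best start peak at pooled rank 7922, the splicing regulator gene hfp at 11478, and Srpk79D, an SR protein kinase, at 23672.

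Prp19 and Cdc5, the partners of BCAS2 in its complex, had start peaks in replicate 2 only. The Prp19 peak ranked 1740 there, 150 bp upstream of its start. Neither replicate 1 nor the pooled list held a summit within 500 bp of that start. Measured from the summit of each peak and not from a start, gaps were rare. Of the 3533 best peaks of replicate 2, 22 (0.623%) had no pooled summit within 500 bp, as had 15 of replicate 1 (0.425%). Whether the Prp19 peak is among the 22 was not worked out. The Cdc5 peak ranked 4997 in replicate 2. Prp38 had no start peak in any list.

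SR protein genes were bound in 3 of 6 cases (50%, 95% exact interval 11.8 to 88.2%), and core snRNP genes in 7 of 19 (36.8%, 16.3 to 61.6%), against 19.1% of all genes, a share inside both intervals. The intervals overlap over most of their length, so the lists do not separate the classes. From replicate 1 the counts were 7 core snRNP and 3 SR genes (18.2% of all genes), and from replicate 2 they were 8 and 2 (19.7% of all genes), so that the order of the 2 shares turned round (42.1% against 33.3%). Among genes with a start peak, the median best rank was 4614 for 16 core snRNP genes, 2919 for 5 SR genes and 5714 for all 7515 genes in the pooled list. In replicate 1 it was 6086 for core snRNP genes, 3596 for SR genes and 6080 for all genes, so that core snRNP genes and all genes had nearly the same median there. In replicate 2 it was 3935, 2945 and 5637 in the same order.

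SF2, B52 and SC35 were the bound SR genes. SF2, the fly counterpart of human SRSF1, ranked 953 in the pooled list, 1200 in replicate 1 and 714 in replicate 2 (3R, 16342107 to 16342304). B52 ranked 1562, 1494 and 1801 (3R, 13661162 to 13661561). SC35, the counterpart of SRSF2, had 2 neighbouring summits on either side of the optimal limit. The inner one (2L, 12434068 to 12434184) scored 114 and ranked 2919, and the other one, at -310 bp from the same start, scored 97.1 and ranked 3591, while the lowest optimal score was 98.4. At the first of them replicate 1 ranked 1782 and replicate 2 ranked 7392. The SC35 call thus rests mainly on replicate 1.

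The other 3 SR genes were not bound at their starts. The best start peak of x16 ranked 11239 in the pooled list, at -343 bp, 5410 in replicate 1, at -367 bp, and 8641 in replicate 2, at 450 bp. The replicates thus had their peaks on opposite sides of the x16 start and shared none. Rsf1, which antagonises SR proteins, ranked 10223 in the pooled list and 8392 in replicate 1 and had no start peak in replicate 2. tra2, which directs sex-specific splicing of doublesex, had a start peak in replicate 1 only (rank 8500).

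A relaxed peak near the start was common among splicing genes. In the pooled list 28 of 35 members had one (80.0%, against 53.9% of all genes), in replicate 1 also 28 (80.0%, against 54.2%) and in replicate 2 29 (82.9%, against 54.5%). The relaxed lists include background by the authors' own file type, so such a peak is not a bound call. Prp8, Sf3b5 and Prp38 had no start peak in any of the lists.

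Summits lay upstream of the start at 12 of the 13 bound genes. The median position was -123 bp (negative is upstream; range -444 to 51 bp), against -127 bp over all 2872 pairs of an optimal summit and a protein-coding gene, of which 88.8% were upstream. Core snRNP genes had a median of -126 bp (range -348 to -75 bp) and SR genes one of -71 bp (range -174 to 51 bp) from 3 values. B52 was the exception: its summit lay 51 bp downstream of the outer of its 2 starts in the pooled list, 46 bp in replicate 1 and 51 bp in replicate 2, inside the annotated 5' UTR. Between the replicates summits of a gene moved by 5 to 99 bp, with a median of 48 bp. Only replicate summits within 100 bp of the pooled summit were used, which limits this spread. At SC35 the best start peak of replicate 2 (rank 4089, 255 bp from its nearest start) was thus left out. Of the 13 pooled peaks, 7 were exactly 400 bp wide with the summit at the centre, as was the width of 57.1% of all optimal start peaks, so positions are not known to the base.

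**Figure D3:**
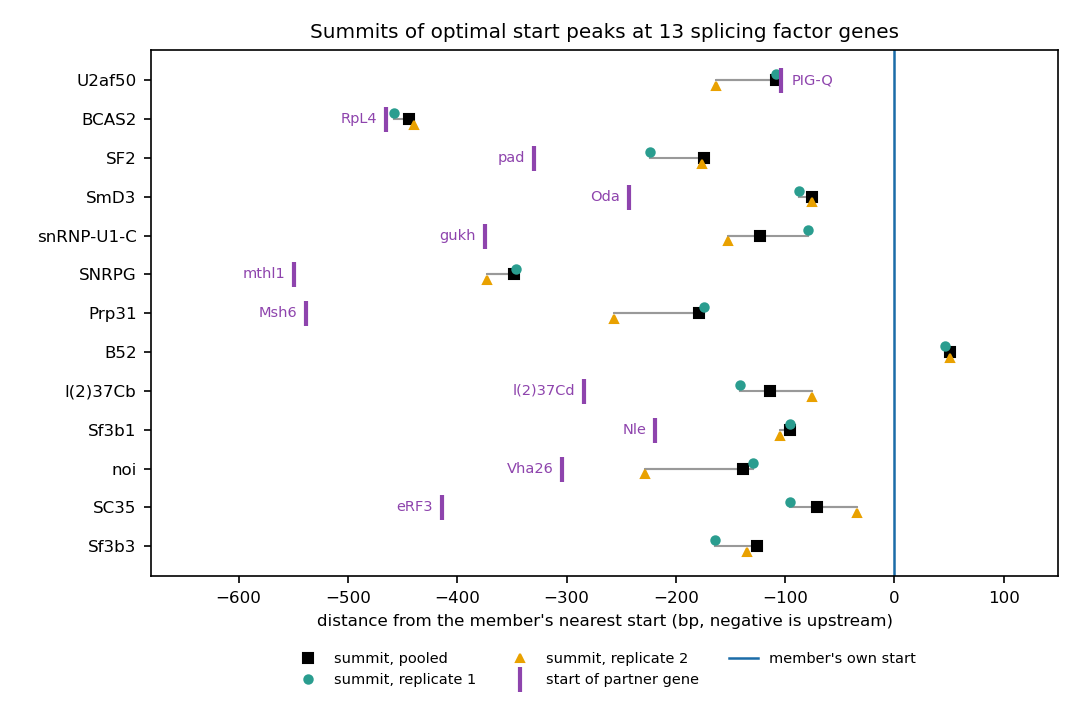
Position of the summit relative to the nearest start of the member itself, in bp, at the 13 bound splicing genes, ordered by pooled rank. Squares are pooled summits, circles and triangles the summits of replicates 1 and 2 within 100 bp of them. Purple bars are the start of the second gene within 500 bp of the pooled summit. All 11 partner starts lie upstream, and the B52 summits alone lie downstream of the member's own start.

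Nearly all bound splicing genes shared their peak with a neighbour on the opposite strand. At 11 of 13 genes the summit was also within 500 bp of the start of a second protein-coding gene, against 63.4% of all bound genes. All 11 pairs were head-to-head, meaning that the starts of each gene nearest the summit point away from each other. The 63.4% counts a second gene on either strand. The share of head-to-head pairs among all bound genes was not worked out. At SmD3 and SC35 the summit also lay in an intron, of Oda and of SC35 itself, so a longer transcript crosses it. At 10 of the 11 the summit lay between both starts. It was nearer to the splicing gene at 7: SmD3 (partner Oda, the ornithine decarboxylase antizyme), snRNP-U1-C (gukh), noi (Vha26, a proton pump subunit), Sf3b1 (Nle), Prp31 (Msh6, a mismatch repair gene), SC35 (eRF3, a translation termination factor) and l(2)37Cb (l(2)37Cd). These are pooled summits. The replicate 2 summit at noi lay at -228 bp of the 304 bp between the starts, nearer to Vha26. At noi and Sf3b1 the pooled positions were close, -139 bp against -165 bp and -96 bp against -123 bp. At 4 genes the pooled summit was nearer to the partner. The BCAS2 summit lay at -444 bp from the BCAS2 start but at -21 bp from that of RpL4, a ribosomal protein gene. The SNRPG summit lay at -348 bp from its own start and nearer to that of mthl1, a receptor gene. At U2af50 the summit was at -108 bp from the start and 4 bp inside PIG-Q, a gene of GPI anchor synthesis, in its 5' UTR. At SF2 the positions were nearly equal, -174 bp from SF2 and -156 bp from pad. When each peak counted only for its nearest start, 9 members stayed bound, and BCAS2, SF2, SNRPG and U2af50, which include the 3 highest-ranked, did not.

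Head-to-head starts were frequent in the whole list and not only among its bound genes. An opposite-strand start lay within 500 bp upstream at 23 of 35 splicing genes (65.7%), against 27.4% of all genes. Of those 23 genes 9 were bound (39.1%), against 41.1% of all head-to-head genes. Of the other 12 splicing genes 4 were bound (33.3%), against 10.8% of all genes without such a neighbour. The 4 were SNRPG and Prp31, whose partners lie just beyond the limit at 549 and 538 bp, and B52 and Sf3b3, which had no second gene within 500 bp of the summit. Unbound members had head-to-head neighbours too, for example Prp38 with shrb at 42 bp, Sf3b2 with CG17219 at 85 bp and Prp3 with Mi-2 at 85 bp. The part of gene arrangement in the bound share was not tested.

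The annotation at the 13 summits was mostly intergenic. Of the 13 summits 9 lay in intergenic DNA, 2 in introns and 2 in 5' UTRs. The same shares were not worked out for all optimal start peaks, so this is not shown to be particular to splicing genes. The intronic ones were at SmD3, in an intron of its partner Oda, and at SC35, in an intron of SC35 itself between its 2 starts. No bound summit lay in coding sequence or in a 3' UTR.

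Within gene bodies, further than 500 bp from every own start, x16 held the only optimal peak of the list. It lay in an intron of x16 (2L, 6918789 to 6919188), 1221 bp from the x16 start, with rank 2521 in the pooled list, 2423 in replicate 1 and 2740 in replicate 2. The same summit lay at -246 bp from the start of nop5, a gene for a snoRNA-binding protein that sits inside the x16 intron. With gene bodies included 14 of 35 members held an optimal summit (40.0%, against 22.7% of all genes).

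Relaxed gene-body summits were found at more SR genes than core snRNP genes. In the pooled list 1 of 19 core snRNP genes and 5 of 6 SR genes held one, against 29.9% of all genes. In replicate 1 it was 4 core snRNP and 5 SR genes (31.8% of all genes), and in replicate 2 it was 1 and 2 (32.7% of all genes). Core snRNP genes had a median length of 1273 bp and SR genes one of 3318.5 bp. Of the core snRNP genes 2, SmF and Sf3b5, have no base further than 500 bp from their start and could not hold such a summit. Per 10 kb of gene beyond 500 bp from its starts, core snRNP genes had 0.293, SR genes 5.04 and all genes 2.04 summits in the pooled list. In replicate 1 these rates were 1.17, 4.48 and 2.06, and in replicate 2 they were 0.293, 2.24 and 2.06. Apart from the 2 summits beside nop5, the SR gene-body peaks of the pooled list ranked between 18799 and 29660, in the lower part of the relaxed list. The x16 summit of pooled rank 19133 lay at -282 bp from the start of another gene, Wee1. In replicate 1 a summit in SC35 lay at -283 bp from CG5435, and a summit in SF2 at -427 bp from Sulf1. In replicate 2 only x16 and Rsf1 held any, and the x16 summits all lay within 500 bp of the start of nop5 or Wee1. The rates count such summits near other starts in every group, and the difference between the classes was not tested.

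**Figure D4:**
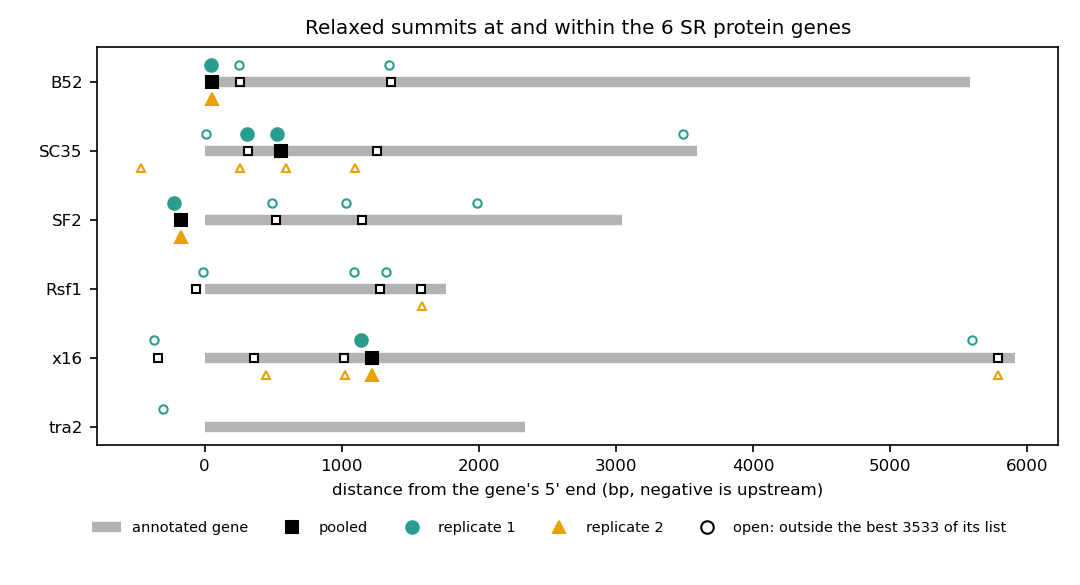
Relaxed summits at and within the 6 SR protein genes, in bp from the 5' end of the gene, for the pooled list (squares), replicate 1 (circles) and replicate 2 (triangles). Grey bars are the annotated genes, and filled symbols rank among the best 3533 of their list. The filled symbols inside x16, near 1221 bp, are the peak upstream of nop5.

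The 10 motifs were searched on both strands from 100 bp before to 100 bp after each of the 13 summits, and shares are given beside those of all 1962 optimal start peaks. At least 1 motif was in 11 of the 13 windows (84.6%, against 75.6% of all), and those of noi and l(2)37Cb held none. The DRE was in 3 windows (SF2, snRNP-U1-C and Sf3b3; 8.66% of all), and its core in these and Sf3b1 (16.3% of all). At Sf3b3 there were 2 DREs, which began at -78 and -49 bp from the start, at snRNP-U1-C 1 that began at -40 bp, and at SF2 1 that lay further upstream. All 4 lay between the summit and the start of the splicing gene. The Motif 1 core was at Sf3b1 alone, beginning at -18 bp from its start (4.38% of all). The letters ATTGG of the Y-box, a promoter element after which a family of cold-shock domain proteins is named, were in 5 windows (33.0% of all), and TATAAA in 7 (36.6%). Of the other motifs, the core of Motif 6 (GTATTTT) was at U2af50 (14.3% of all) and GAGAGAG at B52 (3.31%), and no window held CACGTG (2.85%), CATCNCTA, the core of Motif 7 (7.8%), or CACACACA (2.75%). With only 50 bp on each side of the summit, no member window held a DRE, its core or the Motif 1 core. Among windows of the same length centred 100 bp upstream of all 19253 protein-coding starts, 6.21% held a DRE, 34.2% ATTGG and 33.6% TATAAA. A match says only that these letters were present, and DRE and DRE core counts overlap.

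Other genes of the splicing pathway were looked at in the same way. Of 59 further genes for spliceosomal proteins, exon junction factors, hnRNPs and splicing regulators, 19 were bound in the optimal set (32.2%, 95% exact interval 20.6 to 45.6%), against 19.1% of all genes, and 19 in each replicate alone (18.2% of all genes in replicate 1 and 19.7% in replicate 2). The 8 highest were mbl, an alternative splicing regulator (score 533, rank 226), Phf5a (364, rank 516) and Sf3b6 (325, rank 625), both SF3b subunits, Acn, an exon junction factor (336, rank 588), Doa, a kinase of SR proteins (322, rank 642), SRPK, another such kinase (243, rank 1026), fl(2)d (227, rank 1141) and vir (226, rank 1152). The last 2 act in the m6A methylation complex that also sets Sxl splicing. Both mbl and Phf5a ranked above every member of the list. At 6 of these 8, all but mbl and Doa, the peak also lay within 500 bp of another protein-coding gene, such as Tnpo at Sf3b6 and dup at SRPK. Of all 19 bound genes 12 shared a peak in this way, close to the 63.4% of all bound protein-coding genes.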

How the data were processed

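Peak lists were analysed for 2 ChIP-seq replicates. Per the deposited file notes they are narrowPeak files on dm6, each relaxed list called with 1 control file, and an optimal set from the relaxed lists after filtering on the irreproducible discovery rate. For the aligner, the peak caller and the reproducibility threshold, the entry is: not given in the sources used here. Each deposited peak score has no stated scale. It was used for ranks within a list, and scores were compared only among pooled peaks, which include the optimal set. The deposited −log10 q value has its highest value at 2929 pooled peaks and was not used to rank. The deposited optimal peaks equal the 3533 highest-scoring pooled peaks.

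Starts came from Ensembl release 115 without transposable elements. The summit (interval start plus deposited offset) was assigned to every protein-coding gene with a start within 500 bp. Summits in gene bodies were counted apart. Every member is named, partner genes are those at a member's peak, and the 8 highest other splicing genes are named. The assignment was tested on simulated data. Members and lists were chosen with earlier results of these data known, so no test of enrichment was made. Of 71 symbols listed for other splicing genes, 59 matched a further gene. Scripts ran in Python 3.11.15 with matplotlib 3.10.9, scipy 1.17.1, pandas 2.3.3 and numpy 2.4.6. Sequences on chromosome arm 2R are not shown.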

Additional observations from a re-analysis of the deposited data

How the results depend on the processing

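The 13 bound members (19.1% of all genes) came to 11 with a 250 bp window (15.6% of all genes), which lost BCAS2 and SNRPG, and to 13 with 1000 bp (21.6%). They were 10 in the best 1766 optimal peaks (10.6%), where SC35, Sf3b3 and noi were lost, 9 with the nearest start only (13.6%) and 12 with 1 start per gene (17.3%). Without replicate 1 or without replicate 2 the range was 13 to 14 (18.2 to 19.7% of all genes). With all relaxed pooled peaks the count was 28 for members, 16 for core snRNP genes, 5 for SR genes, and 52 for the other splicing genes, against 53.9% of all genes, and 28 members with gene bodies included, against 60.0%. The other splicing genes were 11 in the best 1766 peaks, against 10.6% of all genes. The median position was -152 bp from replicate 2 summits. With a 250 bp window 6 members shared their peak with a second gene. By reciprocal overlap of at least 50%, 12 of the 13 peaks recurred in replicate 1 and 11 in replicate 2, and all 13 in both by summits within 100 bp. The optimal peaks were made from these replicates, so the counts describe agreement and are no independent check. Alternatives for motifs and for shared peaks in single replicates were added after the data were seen. No paired analysis was possible because there is 1 group. With no read counts, depth sets no limit that can be given.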
